A study of Danio rerio with 32 samples.

Results

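The genes described here encode the UDP-glucuronosyltransferases (UGT) and cytosolic sulfotransferases (SULT) of zebrafish, with the genes that make their cofactors. They were taken from the deposited count table by name: every Ensembl gene whose symbol, in either case, starts with ugt1 to ugt8 or sult1 to sult6, and the cofactor genes ugdh, ugp2, papss1 and papss2 in any copy. The rule itself used no measured value, but it was chosen with earlier results of these data known. It found 55 genes among the 32519 rows of the table, 29200 of which have a symbol: 30 UGT genes, 19 SULT genes and 6 cofactor genes.

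RNA was sequenced from dissected larval livers, with 20 livers pooled in each of 32 libraries and 4 libraries in each of 8 groups. The groups combine a genotype, wild type (WT) or nrf2 knockout (KO), an exposure, acetaminophen (APAP) or the solvent dimethyl sulfoxide (DMSO), and a time, 12 h or 24 h. All larvae received DMSO or APAP, so no group is untouched, and every knockout group carries the same label. The labels give neither the APAP dose, the larval age, the background strain nor the knockout allele, they do not name the nrf2 copy that carries it, and they do not say whether the libraries came from separate clutches, so p-values measure the spread between these libraries only.

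APAP (paracetamol) is cleared by the liver mainly through conjugation, and only a minor share is oxidised to the reactive quinone imine that glutathione traps. Glucuronosyltransferases sit in the endoplasmic reticulum and join glucuronic acid from UDP-glucuronic acid to a phenol or another acceptor, whereas sulfotransferases work in the cytosol and move a sulfonate group from 3'-phosphoadenosine-5'-phosphosulfate (PAPS). Both products are water soluble and leave the hepatocyte through transporters. Nrf2 is a transcription factor that, in mammals, controls many detoxification genes, some UGT genes among them.

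Reads assigned to genes numbered between 3971569 and 6298523 per library. The median library had reads of 12096 genes. The 3 lowest, all of 12 h, were KO APAP replicate 2 with 4129 genes, WT DMSO replicate 2 with 8815 and KO DMSO replicate 3 with 9703. All 11 hepatocyte markers examined, among them fabp10a, had reads in every library and took 6.56% to 14.5% of its reads. None of the 11 was called in any comparison of APAP against DMSO. Between genotypes 1 of them, apoa1b, was called higher in KO than in WT livers under APAP at 24 h (log2 fold change 1.59 ± 0.41 (SE), adjusted p = 0.0346, edgeR). NFE2L2 (ENSDARG00000042824), the nrf2 copy with more reads, kept its transcript in the knockouts, with group means of 30.6 to 54.2 CPM (the usual depth-scaled read count) over the 8 groups and no call between genotypes, so the counts do not check the genotype labels.

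Not every member could be tested. The filter on low counts kept 11384 genes in all and 34 members: 16 UGT, 14 SULT and 4 cofactor genes. By family these were 2 of 7 ugt1 genes, 5 of 7 ugt2 genes, 8 of 15 ugt5 genes and UGT8, and 5 of 8 sult1, 3 of 3 sult2, 4 of 5 sult3 genes, SULT4A1 and sult6b1. The only sult5 gene, sult5a1, was not kept. The 14 UGT genes left out had 0 to 92 reads over all 32 libraries, the 5 SULT genes 0 to 75, and the cofactor genes PAPSS1 and one UGP2 copy (ENSDARG00000005578) 5 and 89. A gene that is high in a single group can pass the filter through that group alone, so the counts of called members below describe the tested members and are no support for a statement about the families. UGT genes also share sequence: by symbol in RefSeq on the GRCz12tu assembly, UGT1A1 overlaps 6 other ugt1a entries, ugt2a4 overlaps ugt2a1 to ugt2a3, and ugt5b1 to ugt5b4 overlap one another. How the authors' counting divided reads between such overlapping genes is not stated, so the values of single members of these clusters are uncertain. Ambiguous reads made up 2.06% to 3.17% of a library.

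The summed CPM of the UGT genes was lower in every KO library under APAP than in any under DMSO, at both times. The families did not share this evenly. In KO livers at 24 h the mean ugt5 sum was 278 CPM under DMSO and 24.7 under APAP. The ugt1 sum was 134 and 98.1 there, and the ugt2 sum 121 under both. Each of these sums was mostly reads of 1 gene. In the same KO DMSO libraries ugt5b4 held 190.3 to 305 CPM, UGT1A1 averaged 126 and ugt2a4 averaged 115. A family sum thus does not show how the other members of the family moved. Livers were sequenced in bulk, so that fewer cells of a type and less RNA per cell cannot be told apart. Values are CPM, counts scaled to the library size after trimmed-mean (TMM) correction, and they are not corrected for gene length, so levels are compared between groups and not between genes. In WT livers at 12 h the UGT genes summed to 514, 851, 439.6 and 584 CPM under DMSO and to 348, 446, 447 and 442 under APAP, for replicates 1 to 4 in that order. In KO livers at the same time the sums were 534, 694, 469 and 579 under DMSO and 217, 118, 212 and 234 under APAP. The WT groups overlapped, and every KO library under APAP lay below every KO library under DMSO. At 24 h the WT sums were 455, 647, 626 and 477 under DMSO and 454, 340.0, 626 and 243 under APAP, again with overlap. The KO sums were 575, 537, 511 and 532 and 233, 261, 274 and 217, without overlap. As means, KO livers went from 569 ± 95 (SD, n = 4) to 195 ± 52.3 at 12 h and from 539 ± 26.7 to 246 ± 26 at 24 h, against 597 ± 179 to 421 ± 48.5 and 551 ± 99.2 to 416 ± 165 in WT. With the 3 libraries of few genes left out, the KO mean at 12 h was 603 ± 82.6 under DMSO and 221 ± 11.4 under APAP (n = 3 each).

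The SULT sums overlapped between the treatments at 12 h. There the WT mean was 554 ± 164 CPM under DMSO and 417 ± 60.5 under APAP, and the KO mean was 567 ± 76.2 and 409.8 ± 86.6. At 24 h the WT libraries summed to 446, 726, 744 and 714 CPM under DMSO and to 305, 258, 259 and 515 under APAP. The KO libraries summed to 694, 766, 712 and 646 and 168, 222, 365 and 285. In KO livers the groups did not overlap at 24 h, whereas in WT livers the lowest DMSO library, replicate 1, lay below the highest APAP library, replicate 4. No test was run on these sums, since they add up genes chosen by name.

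**Figure D1:**
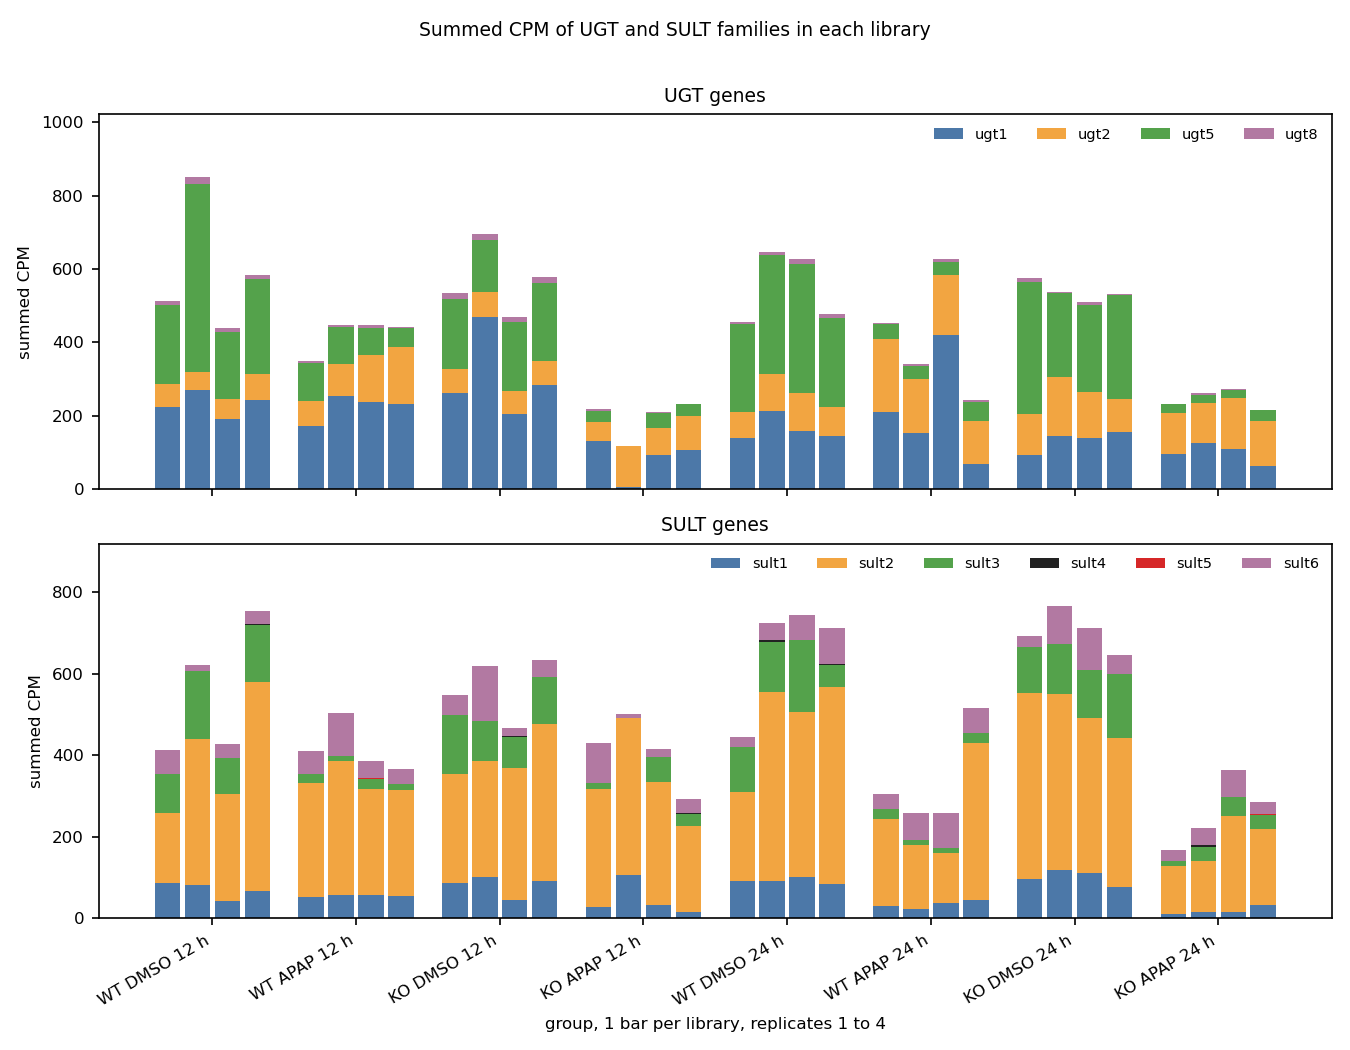
Summed CPM of the UGT families (upper panel) and SULT families (lower panel) in each of the 32 libraries, 1 bar per library and 4 bars per group. The mean ugt5 sum was lower under APAP in both genotypes at 24 h, 41 against 290.1 CPM in WT and 24.7 against 278 in KO livers, and so was the mean sult3 sum, 18.0 against 116 CPM in WT and 32.4 against 128 in KO livers at 24 h.

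By family, the ugt5 genes averaged 292 ± 150.2 CPM (SD, n = 4) in WT livers under DMSO at 12 h and 81.6 ± 24.0 under APAP, and 184 ± 29.7 against 25.7 ± 17.4 in KO livers. The mean ugt1 sum was 232 ± 32.6 against 224 ± 35.7 in WT livers and 305 ± 114 against 84.7 ± 54.4 in KO livers at 12 h. The mean ugt2 sum was 60.6 ± 9.91 against 109.7 ± 39 in WT livers at 12 h and 89.0 ± 16.6 against 156 ± 34.4 at 24 h. The APAP mean was the higher at both times. In KO livers the mean ugt2 sums were 64.8 ± 2.46 and 81.9 ± 25.5 at 12 h and 121 ± 29.7 and 121 ± 13.0 at 24 h.

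APAP against DMSO was then tested gene by gene, with edgeR's quasi-likelihood test on all 11384 genes and Benjamini-Hochberg adjustment; a gene is called at an adjusted p under 0.05. In all, 11 members fell in at least 1 of the 4 comparisons, 5 of them UGT genes and 6 SULT genes, and no member rose in any. In WT livers at 12 h, 1 UGT gene and 2 SULT genes fell, or 8.82% of the 34 tested members, where 0.448% of all genes tested fell. At 24 h in WT livers 2 UGT and 3 SULT genes fell (14.7%, against 1.55% of all genes). In KO livers 5 UGT and 2 SULT genes fell at 12 h (20.6%, against 2.13%), and 3 UGT and 3 SULT genes at 24 h (17.6%, against 3.00%). For the higher direction, where no member was called, the shares over all genes were 1.35% and 1.64% in WT livers at 12 h and 24 h, and 3.09% and 2.05% in KO livers. In WT livers DESeq2 called 1 member higher at 12 h, PAPSS2 (ENSDARG00000071021), and 2 at 24 h, sult1st5 and ugt2a4; it called none higher in KO livers, and limma voom called none higher in any of the 4. A fit to the 8 libraries compared, without the other groups, ended several calls in KO livers at 12 h, where it called only ugt5b4 and ugt5b3; UGT1A1 had an adjusted p of 0.102, ugt5b2 of 0.527, UGT8 of 0.436, sult3st2 of 0.209 and sult3st4 of 0.0727 there. It also ended the sult3st3 call in WT livers at 12 h (adjusted p = 0.0527).

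The median log2 fold change of the 16 tested UGT genes was -0.81 and -0.44 in WT livers at 12 h and 24 h and -1.73 and -0.28 in KO livers. For the 14 tested SULT genes it was -0.66 and -2.11 in WT and -1.21 and -1.48 in KO livers. Over all genes tested the medians were -0.07 and 0.02 in WT and -0.30 and -0.00 in KO livers. Leaving out members with at most 3 reads in either group, the UGT median at 24 h was -0.16 in WT and -0.15 in KO livers. Across the 4 comparisons 7 UGT and 8 SULT genes had a fold change below 0 every time, and 1 UGT gene, ugt5a2, above 0 every time without a call. These counts held with DESeq2 and with relative log expression scaling; with limma voom they were 8 UGT, 7 SULT and 0, and with the replicate number as a block 2 UGT genes, ugt2b3 and ugt5a2, were above 0 every time. With the size factors of relative log expression in place of TMM, the median of all genes moved from -0.30 to -0.51 in KO livers at 12 h and from -0.07 to -0.18 in WT livers at 12 h; no call named here changed its direction. Libraries of APAP all lay below those of DMSO for 10, 10, 11 and 11 of the 34 members in WT livers at 12 h and 24 h and in KO livers at 12 h and 24 h (29.4%, 29.4%, 32.4% and 32.4%, against 4.12%, 6.70%, 7.82% and 9.31% of all genes tested). They all lay above for PAPSS2 (ENSDARG00000071021) in WT livers at 12 h and for ugt2a4 and sult1st5 in WT livers at 24 h. The same held for ugt2b3 at 12 h and ugt2a7 at 24 h in KO livers. The share of all genes in that direction is not given here.

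**Figure D2:**
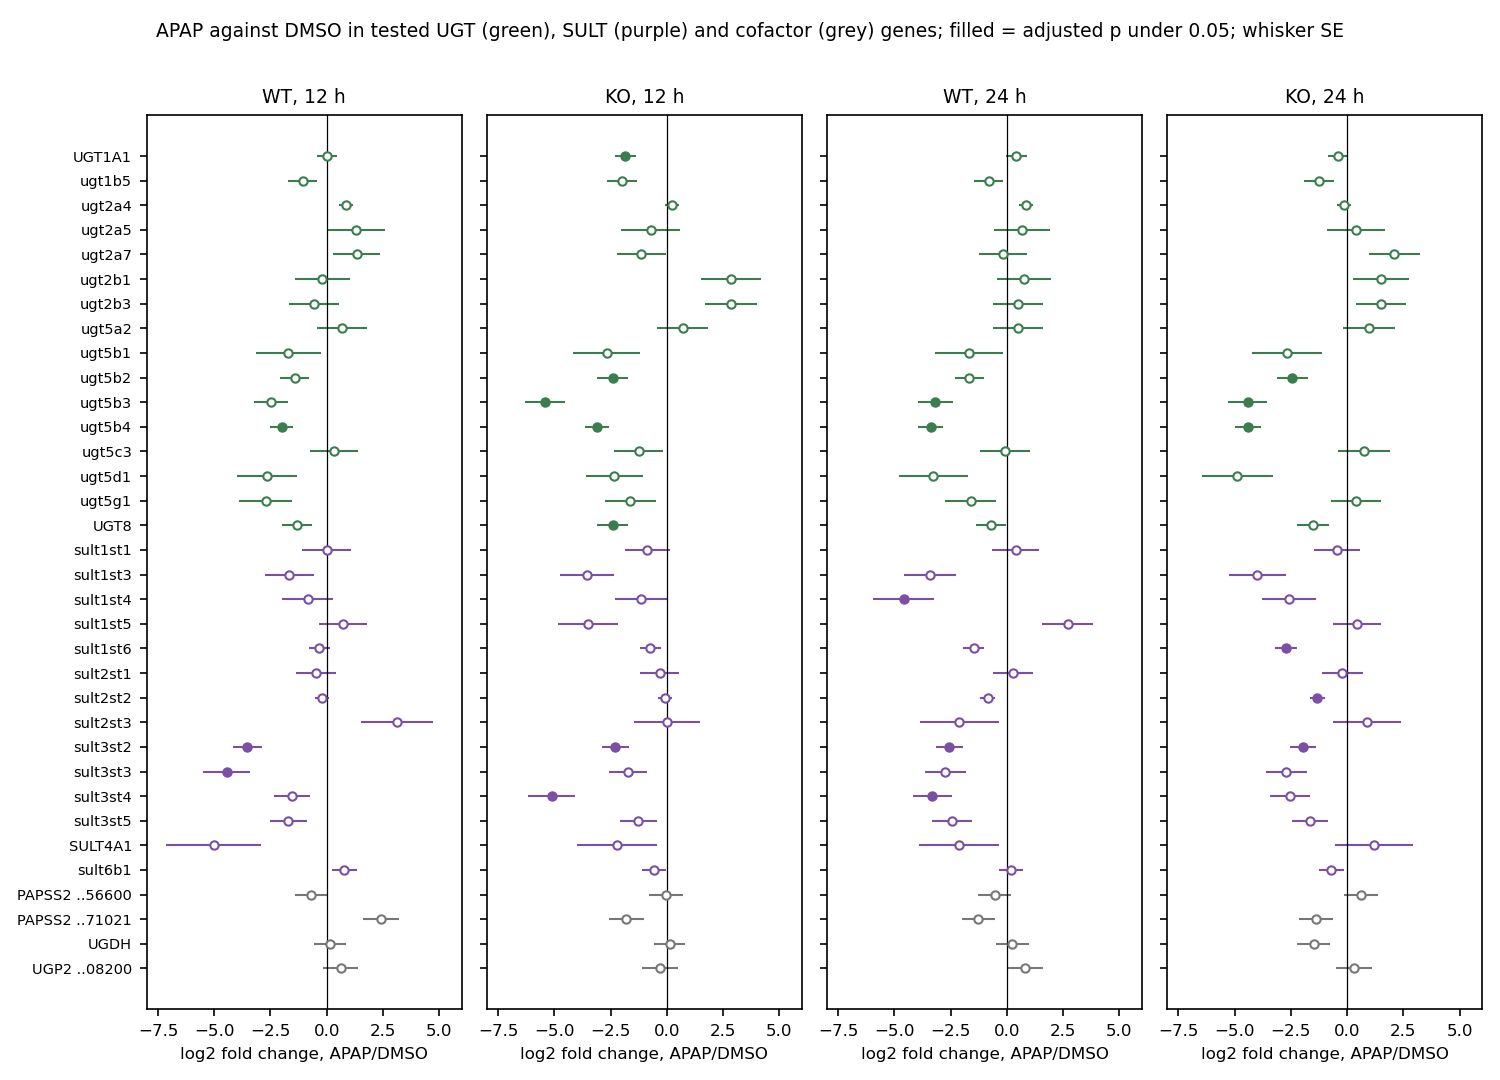
Log2 fold change of APAP against DMSO for the 34 tested members in the 4 comparisons (points; whiskers, 1 SE; filled points, adjusted p under 0.05; green UGT, purple SULT, grey cofactor genes). The filled points all lie left of 0, and most of them belong to ugt5b2 to ugt5b4 and to the sult3 genes. UGT1A1, UGT8, sult1st4, sult1st6 and sult2st2 have 1 filled point each.

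The ugt5 family, known from fish and absent from mammals, includes ugt5b4 (ENSDARG00000091916), the one UGT gene called in all 4 comparisons. In WT livers at 12 h ugt5b4 stood at 165, 434, 152 and 208 CPM under DMSO and 87.2, 74.2, 38.5 and 40.8 under APAP. In KO livers it stood at 138, 89.9, 165 and 157 under DMSO and 11.4, 0.244, 34.3 and 18.1 under APAP. Every APAP library was below every DMSO library of its genotype, and the KO APAP values were also below all WT APAP values. At 24 h the WT values were 202, 259, 303 and 194 under DMSO and 23.5, 21.6, 15.7 and 30.3 under APAP. The KO values were 305, 190.3, 192 and 254 and 6.76, 10.5, 12.8 and 14.4. The treatments were again apart in both genotypes, and the KO APAP group again lay below the WT APAP group, a genotype difference that was not called (adjusted p = 0.492). With APAP ugt5b4 fell 3.98-fold in WT livers at 12 h (log2 fold change -1.99 ± 0.51 (SE), adjusted p = 0.0244, edgeR) and 10.5-fold at 24 h (log2 fold change -3.39 ± 0.54 (SE), adjusted p = 5.69e-05). In KO livers it fell 8.55-fold (log2 fold change -3.10 ± 0.53 (SE), adjusted p = 1.52e-04) and 21.2-fold (log2 fold change -4.40 ± 0.57 (SE), adjusted p = 8.72e-07). Only the WT call at 12 h depended on single libraries: it was lost without WT APAP 12 h replicate 3 (-1.83, adjusted p = 0.121), WT APAP 12 h replicate 4 (-1.86, adjusted p = 0.101) and WT DMSO 12 h replicate 2 (-1.58, adjusted p = 0.154), and its adjusted p ran from 2.78e-04 to 0.154 over 15 alternative settings. Without KO APAP 12 h replicate 2, the library with fewest genes and only 0.244 CPM, the KO value at 12 h was -2.71, adjusted p = 1.28e-05. Without KO APAP 12 h replicate 3, the highest of its group, it was -3.79, adjusted p = 3.82e-05, within a range of 3.81e-10 to 0.0372.

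Its neighbour ugt5b3 (ENSDARG00000099276) followed. At 12 h it measured 25.6, 22.5, 10.4 and 13.4 CPM in WT DMSO and 2.87, 2.32, 6.75 and 0.846 in WT APAP libraries. In KO livers they were 20.3, 29.3, 11.6 and 17.8 and 1.46, 0, 0 and 0.193, with 2 KO APAP libraries at 0. No APAP library reached the lowest DMSO library of its genotype. At 24 h they were 9.10, 24.3, 9.88 and 19.2 and 0, 4.20, 1.31 and 1.26 in WT livers. KO libraries stood at 16.3, 17.2, 11.4 and 4.38 and 0.387, 0.438, 0.724 and 0.709. The groups were apart at 24 h too. ugt5b3 fell in WT livers at 24 h (log2 fold change -3.18 ± 0.78 (SE), adjusted p = 0.0125) and in KO livers at 12 h (log2 fold change -5.41 ± 0.90 (SE), adjusted p = 8.09e-05) and 24 h (log2 fold change -4.41 ± 0.87 (SE), adjusted p = 7.27e-04), all by edgeR. In WT livers at 12 h the log2 fold change was -2.48 ± 0.75 with an adjusted p of 0.0836, and 5 alternative settings, DESeq2 and limma voom among them, called it. The WT call at 24 h was lost without WT APAP 24 h replicate 1 (-2.75, adjusted p = 0.0555), WT APAP 24 h replicate 3 (-3.05, adjusted p = 0.0652) and WT DMSO 24 h replicate 2 (-2.89, adjusted p = 0.0561), with a range of 2.46e-04 to 0.0652 over the settings. Without replicate 2 of the WT APAP group, the highest, the value at 24 h was -4.17, adjusted p = 0.00636. Without KO APAP 12 h replicate 1, which held most of that group's reads, the KO value at 12 h was -7.75, adjusted p = 2.37e-05 (range 6.56e-10 to 0.0436).

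For ugt5b2 (ENSDARG00000101495) the 12 h values were 11, 27.3, 6.51 and 25.4 CPM in WT DMSO and 3.89, 5.07, 13.9 and 3.38 in WT APAP libraries, which overlapped. Their KO counterparts were 12.2, 8.94, 6.23 and 14.9 and 0.915, 0, 0.873 and 5.98, without overlap. At 24 h they were 17.1, 27.8, 22.7 and 22.0 and 7.03, 6.4, 2.62 and 12.1 in WT livers. In KO livers they were 28.6, 13.6, 24.2 and 17.8 and 2.51, 3.50, 3.14 and 6.38, and the treatments were apart in both genotypes. ugt5b2 fell in KO livers at 12 h (log2 fold change -2.41 ± 0.69 (SE), adjusted p = 0.0320, edgeR) and at 24 h (log2 fold change -2.44 ± 0.68 (SE), adjusted p = 0.0228), and was not called in WT livers, at -1.42 ± 0.65 (adjusted p = 0.406) and -1.67 ± 0.65 (adjusted p = 0.206). An edgeR fit to the compared groups alone (adjusted p = 0.0174) and one without the 3 libraries of few genes (adjusted p = 0.0346) called ugt5b2 lower in WT livers at 24 h. The KO call at 12 h was lost without KO APAP 12 h replicate 1 (-2.19, adjusted p = 0.0777), KO APAP 12 h replicate 3 (-2.19, adjusted p = 0.0836), KO DMSO 12 h replicate 1 (-2.34, adjusted p = 0.0723) and KO DMSO 12 h replicate 4 (-2.22, adjusted p = 0.0857), and without KO APAP 12 h replicate 4 the value was -4.08, adjusted p = 0.00100 (range 0.00100 to 0.527). The KO call at 24 h was lost without KO APAP 24 h replicate 1 (-2.26, adjusted p = 0.107), KO APAP 24 h replicate 2 (-2.38, adjusted p = 0.0822), KO APAP 24 h replicate 3 (-2.34, adjusted p = 0.0846), KO DMSO 24 h replicate 1 (-2.23, adjusted p = 0.0838) and KO DMSO 24 h replicate 3 (-2.36, adjusted p = 0.0602), within a range of 2.93e-04 to 0.107. The other 5 tested ugt5 genes, ugt5a2, ugt5b1, ugt5c3, ugt5d1 and ugt5g1, held 0 to 14.6 CPM in single libraries and were not called in the main fit. Among them ugt5b1 had log2 fold changes from -2.68 ± 1.49 in KO livers at 12 h to -1.68 ± 1.5 in WT livers at 24 h, and ugt5d1 was also below 0 in all 4 comparisons. In KO livers limma voom called ugt5b1 lower at 12 h (adjusted p = 0.0154). DESeq2 (adjusted p = 0.0131) and edgeR without the 3 libraries of few genes (adjusted p = 0.0189) called ugt5d1 lower at 24 h in KO livers.

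**Figure D3:**
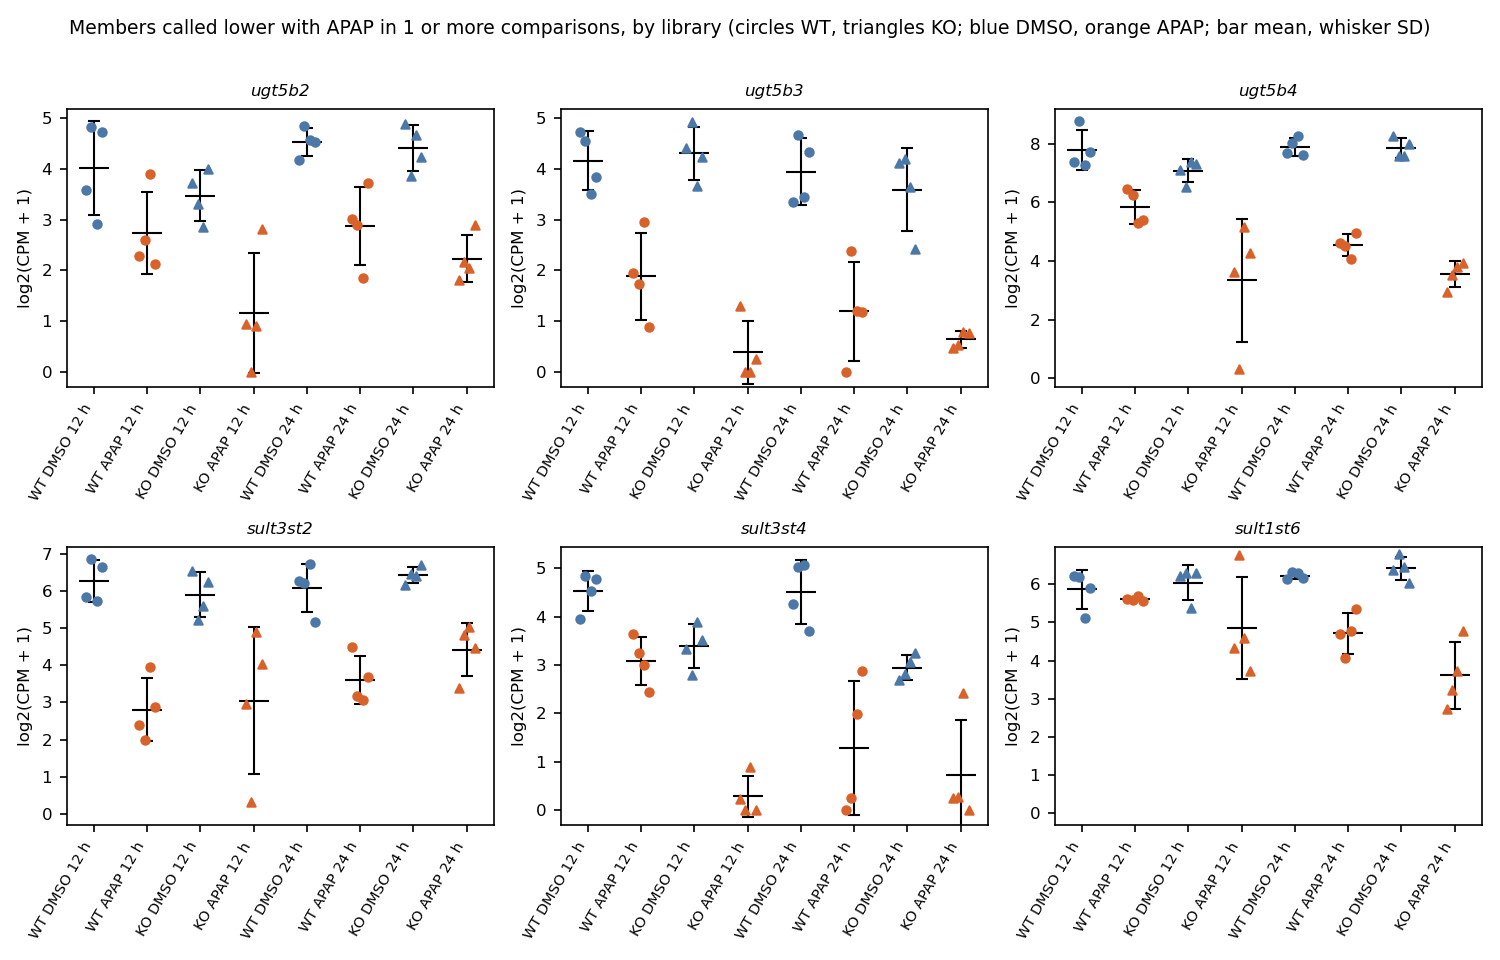
Log2(CPM + 1) by library for ugt5b2, ugt5b3, ugt5b4, sult3st2, sult3st4 and sult1st6 in the 8 groups (circles WT, triangles KO, blue DMSO, orange APAP; bar, mean; whisker, SD; n = 4). In the ugt5b4 and sult3st2 panels every APAP library lies below every DMSO library of the same genotype and time; KO APAP 12 h replicate 2 lies lowest for ugt5b4 and highest of its group for sult1st6.

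The ugt1 family holds the enzymes that conjugate bilirubin and, in several of its members, phenols such as APAP in humans. The zebrafish row named UGT1A1 (ENSDARG00000006220) measured 208, 255, 179 and 225 CPM in WT DMSO and 163, 247, 233 and 226 in WT APAP libraries at 12 h. In KO livers it measured 243, 421, 189 and 257 and 121, 6.83, 79.7 and 102. The WT groups covered the same range, and every KO APAP library was below every KO DMSO library. At 24 h the values were 129.6, 201, 153 and 139 and 205, 149, 414 and 66.5 in WT livers. KO libraries stood at 87.4, 133, 136 and 149 and 91.6, 124, 104 and 59.5, and both pairs overlapped. UGT1A1 fell 3.58-fold in KO livers at 12 h (log2 fold change -1.84 ± 0.46 (SE), adjusted p = 0.0114, edgeR); in WT livers the log2 fold change was 0.00 ± 0.45, with a 95% interval of -0.90 to 0.90. The call was lost without KO DMSO 12 h replicate 2 (-1.57, adjusted p = 0.0579), the library with the highest value. It held when the lowest library, KO APAP replicate 2 with 6.83 CPM, was left out (-1.48, adjusted p = 0.0124, range 1.80e-04 to 0.102). That KO DMSO library also had the most reads of intestinal marker genes, 0.850% of its reads against 0.0902% in the lowest of its group, and the part of intestinal RNA in the UGT1A1 value was not tested.

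ugt1b5 (ENSDARG00000089507), the other tested ugt1 gene, had fold changes below 0 in all 4 comparisons and no call, between -0.81 ± 0.65 in WT livers at 24 h and -2.0 ± 0.66 (adjusted p = 0.0652) in KO livers at 12 h. Its 12 h values were 15.9, 14.5, 12.3 and 16.9 CPM in WT DMSO and 9.80, 6.76, 5.01 and 6.98 in WT APAP libraries, without overlap. Their KO counterparts were 18.4, 48.1, 16 and 27.7 and 9.89, 0, 12.9 and 4.63, also apart, with KO DMSO replicate 2 the highest. At 24 h they were 8.72, 11.1, 5.14 and 5.40 and 4.42, 5.0, 5.23 and 2.53 in WT livers and 6.29, 13.0, 2.72 and 8.48 and 2.32, 1.53, 6.03 and 2.83 in KO livers, where the groups overlapped. With relative log expression scaling, DESeq2 and limma voom, and without the 3 libraries of few genes, the KO value at 12 h was called.

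The ugt2 genes, which in mammals conjugate steroids, bile acids and also phenols, had no call in any comparison. ugt2a4 (ENSDARG00000051940), the ugt2 gene with most reads, measured 58.6, 44, 41.4 and 64.4 CPM in WT DMSO and 60.5, 68.9, 112 and 137 in WT APAP libraries at 12 h. The KO libraries gave 61.7, 56.5, 59.5 and 58.5 and 46, 89.3, 67.0 and 76.6. By 24 h its levels were 58.8, 92.8, 96.1 and 71.8 and 186, 129.7, 152 and 105 in WT livers, where every APAP library was above every DMSO library. In KO livers they were 102, 154, 124 and 80.4 and 91.4, 88.0, 129 and 105, which overlapped, as did both pairs at 12 h. Its log2 fold changes were 0.86 ± 0.31 at 12 h (adjusted p = 0.207) and 0.84 ± 0.31 at 24 h (adjusted p = 0.166) in WT livers and 0.24 ± 0.31 and -0.15 ± 0.31 in KO livers. At 24 h in WT livers DESeq2 gave an adjusted p of 0.0425. The other 4 tested ugt2 genes, ugt2a5, ugt2a7, ugt2b1 and ugt2b3, had single libraries from 0 to 21.2 CPM.

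UGT8 (ENSDARG00000037455) is the ceramide galactosyltransferase of mammals, which uses UDP-galactose and makes myelin lipids; it belongs to the family by sequence and is not a drug-conjugating enzyme. It measured 11.2, 18.9, 10.4 and 11.1 CPM in WT DMSO and 5.58, 4.86, 7.62 and 2.54 in WT APAP libraries at 12 h. Levels in KO livers were 16, 16, 11.9 and 16.8 and 4.76, 0, 4.37 and 2.12. The treatments were apart in both genotypes. The libraries of 24 h held 5.12, 8.02, 13.6 and 9.19 and 4.82, 3.80, 6.92 and 6.32 in WT livers and 11.3, 3.39, 7.89 and 2.74 and 0.193, 3.50, 3.38 and 1.89 in KO livers, with overlap. UGT8 fell in KO livers at 12 h (log2 fold change -2.41 ± 0.71 (SE), adjusted p = 0.0369, edgeR), a call lost without KO APAP 12 h replicate 4 (-2.32, adjusted p = 0.0862), KO DMSO 12 h replicate 1 (-2.39, adjusted p = 0.0783), KO DMSO 12 h replicate 2 (-2.40, adjusted p = 0.0713) and KO DMSO 12 h replicate 4 (-2.39, adjusted p = 0.0796) (range 4.25e-04 to 0.436). In WT livers at 12 h the value was -1.32 ± 0.68 (adjusted p = 0.511).

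**Figure D4:**
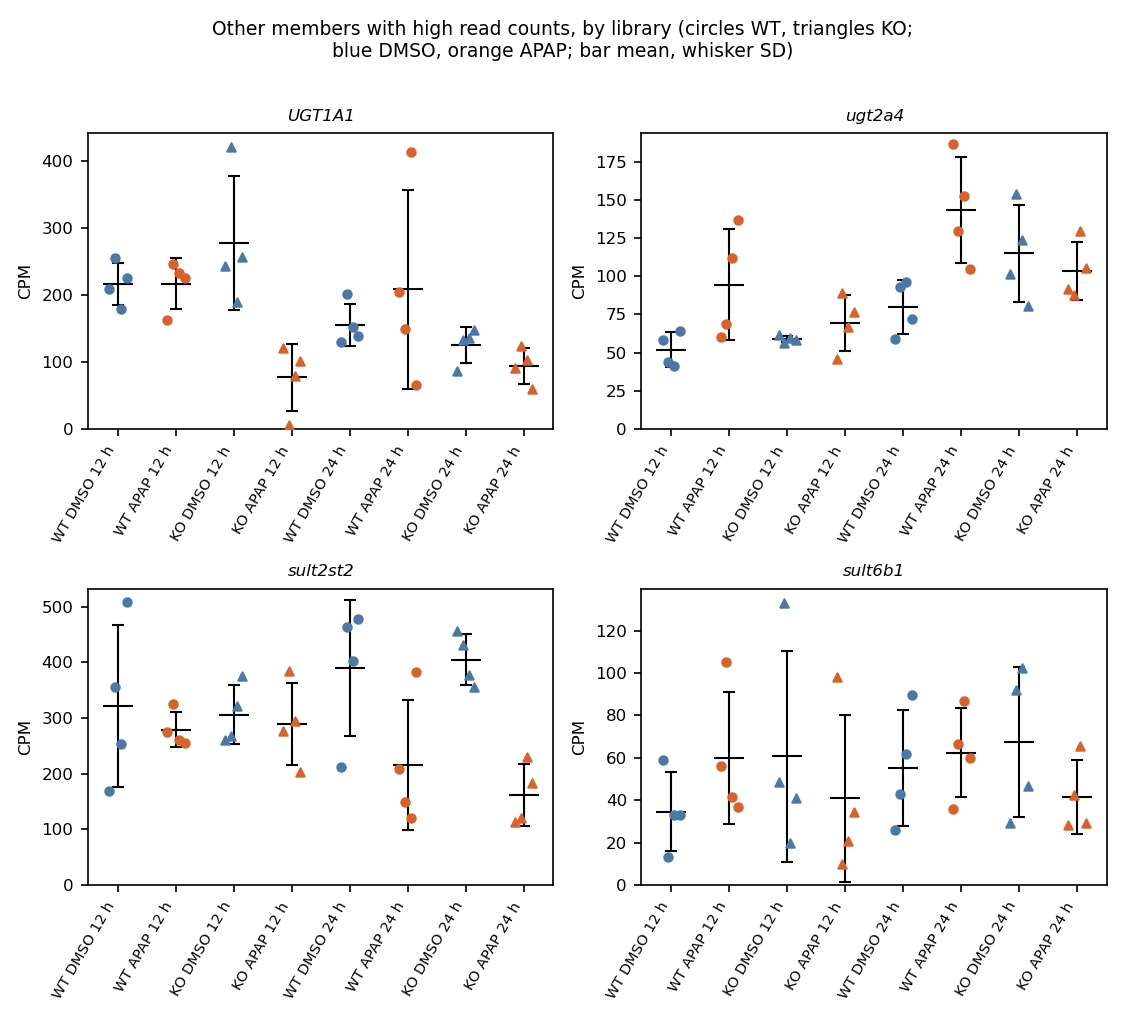
CPM by library for UGT1A1, ugt2a4, sult2st2 and sult6b1 in the 8 groups (symbols as in the plot of lowered genes; bar, mean; whisker, SD; n = 4). UGT1A1 is low in the KO APAP libraries at 12 h, between 6.83 and 121 CPM, and ugt2a4 has its highest group mean in WT APAP livers at 24 h.

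Among the sulfotransferases sult3st2 was the one gene called in all 4 comparisons. In the mouse the SULT3 enzyme sulfonates amines; the zebrafish genes sult3st2, sult3st4, sult3st5 and sult3st3 lie next to one another on the RefSeq assembly. sult3st2 (ENSDARG00000093619) measured 56.6, 116, 52.3 and 99.7 CPM in WT DMSO and 4.23, 2.96, 14.6 and 6.34 in WT APAP libraries at 12 h. In KO livers it measured 91.1, 35.9, 47.5 and 75.1 and 6.77, 0.244, 28.6 and 15.4. All DMSO libraries were above all APAP libraries of their genotype. Values at 24 h were 75.6, 72.6, 104 and 35 and 21.5, 8.0, 7.29 and 11.9 in WT livers. KO libraries stood at 71.1, 87.5, 83.8 and 103 and 9.47, 26.9, 31.6 and 21.3, and both pairs were apart. It fell in all 4 comparisons by edgeR: 11.5-fold (log2 fold change -3.53 ± 0.63 (SE), adjusted p = 4.26e-04) and 5.90-fold (log2 fold change -2.56 ± 0.60 (SE), adjusted p = 0.00874) in WT livers, and 4.88-fold (log2 fold change -2.29 ± 0.60 (SE), adjusted p = 0.0156) and 3.87-fold (log2 fold change -1.95 ± 0.59 (SE), adjusted p = 0.0412) in KO livers. Both WT calls held in all 15 alternative settings. The KO call at 12 h was lost without KO DMSO 12 h replicate 1 (-2.05, adjusted p = 0.0616) (range 3.16e-04 to 0.209), and became -3.06, adjusted p = 0.00295 without KO APAP 12 h replicate 3. Without WT APAP 12 h replicate 3 the WT value at 12 h was -4.17, adjusted p = 2.91e-04. The KO call at 24 h was lost when any one of the 8 libraries of its groups was left out, with values between -2.15 and -1.68 and adjusted p up to 0.191.

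sult3st4 (ENSDARG00000040781) measured 14.4, 27.8, 22.0 and 26.4 CPM in WT DMSO and 11.5, 8.45, 6.97 and 4.44 in WT APAP libraries at 12 h. The KO libraries gave 9.05, 5.96, 13.9 and 10.5 and 0.183, 0, 0.873 and 0, the latter group holding 5 reads in all. At 24 h the values were 18.2, 31.5, 32.4 and 12.0 and 0, 0.200, 2.99 and 6.32 in WT livers and 5.42, 5.99, 7.34 and 8.48 and 0.193, 0.219, 4.34 and 0 in KO livers. In all 4 comparisons the APAP libraries lay below the DMSO libraries without overlap. edgeR called the decrease in WT livers at 24 h (log2 fold change -3.32 ± 0.87 (SE), adjusted p = 0.0219) and in KO livers at 12 h (log2 fold change -5.12 ± 1.04 (SE), adjusted p = 0.00148). The values at the other times were -1.53 ± 0.80 (adjusted p = 0.529) in WT and -2.53 ± 0.89 (adjusted p = 0.102) in KO livers. DESeq2 (adjusted p = 0.0222) and limma voom (adjusted p = 0.0153) also called the decrease in KO livers at 24 h. The WT call at 24 h was lost without WT APAP 24 h replicate 1 (-2.92, adjusted p = 0.0737), WT APAP 24 h replicate 2 (-2.94, adjusted p = 0.0993), WT APAP 24 h replicate 3 (-3.50, adjusted p = 0.0568), WT DMSO 24 h replicate 2 (-3.16, adjusted p = 0.0632) and WT DMSO 24 h replicate 3 (-3.13, adjusted p = 0.0615), and without WT APAP 24 h replicate 4 the value was -4.41, adjusted p = 0.00796 (range 5.85e-04 to 0.0993). The KO call at 12 h held without each library in turn and was -6.8, adjusted p = 9.88e-04 without KO APAP 12 h replicate 3 (range 1.58e-06 to 0.0727).

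sult3st3 (ENSDARG00000042920) measured 14.4, 7.79, 6.87 and 4.10 CPM in WT DMSO and 0, 0, 0.218 and 1.27 in WT APAP libraries at 12 h, with 7 reads in the latter group. Levels in KO livers were 21.1, 40.5, 4.10 and 9.62 and 2.20, 0, 16.4 and 4.25, which overlapped. By 24 h its levels were 6.82, 9.46, 20.0 and 5.0 and 1.81, 3.20, 0.561 and 0.506 in WT livers and 10.8, 9.78, 14.4 and 15.3 and 2.71, 0.438, 0.965 and 3.54 in KO livers, without overlap. It fell in WT livers at 12 h (log2 fold change -4.44 ± 1.05 (SE), adjusted p = 0.0122, edgeR). That call was lost without WT APAP 12 h replicate 1 (-4.04, adjusted p = 0.0668), WT APAP 12 h replicate 2 (-4.10, adjusted p = 0.0592) and WT APAP 12 h replicate 3 (-4.27, adjusted p = 0.0572), and the value was -6.57, adjusted p = 0.00437 without replicate 4 (range 1.48e-04 to 0.0668). For WT livers at 24 h the value was -2.73 ± 0.92 (adjusted p = 0.105), and in KO livers -1.72 ± 0.86 (adjusted p = 0.248) at 12 h and -2.70 ± 0.91 (adjusted p = 0.0818) at 24 h. DESeq2 called sult3st3 lower at 24 h in WT (adjusted p = 0.0251) and KO livers (adjusted p = 0.0218). sult3st5 (ENSDARG00000071495) was not called in the main fit, with fold changes from -2.45 ± 0.87 in WT livers at 24 h to -1.26 ± 0.81 in KO livers at 12 h, all below 0. In WT livers at 24 h DESeq2 called sult3st5 lower (adjusted p = 0.0346). It held 9.09, 17.4, 7.39 and 8.96 CPM in WT DMSO, 5.92, 1.48, 2.40 and 3.17 in WT APAP, 22.0, 17.4, 8.90 and 20.2 in KO DMSO and 3.66, 0, 14.2 and 10.6 in KO APAP libraries at 12 h. In the same order it held at 24 h 8.91, 9.46, 19.6 and 4.0, 1.00, 0, 1.5 and 5.31, 23.9, 18.6, 13.6 and 31.7 and 0.193, 8.31, 10.1 and 9.45. The treatments did not overlap in WT livers at 12 h and in KO livers at 24 h, with the APAP libraries below.

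The sult1 genes sulfonate phenols, and in humans SULT1A1 is the main enzyme of APAP sulfation. sult1st6 (ENSDARG00000006811), the sult1 gene with most reads, measured 73.5, 72.4, 33.8 and 59.0 CPM in WT DMSO and 47.8, 47.1, 50.3 and 46.1 in WT APAP libraries at 12 h. In KO livers it measured 72.7, 77.3, 40.2 and 77.6 and 19.0, 108, 22.9 and 12.2, so that KO APAP replicate 2 was above every other library of both KO groups. The libraries of 24 h held 68.6, 78.6, 76.9 and 70.4 and 24.7, 15.6, 26.2 and 39.9 in WT livers. Their KO counterparts were 81.8, 109, 86.5 and 64.6 and 5.60, 8.31, 12.3 and 26.2, and the treatments were apart in both genotypes at 24 h. It fell 6.52-fold in KO livers at 24 h (log2 fold change -2.70 ± 0.49 (SE), adjusted p = 2.69e-04, edgeR), a call that held in all 15 alternative settings. For WT livers at 24 h the value was -1.47 ± 0.47 (adjusted p = 0.0823), and DESeq2 and limma voom called it. At 12 h it was -0.32 ± 0.46 in WT and -0.73 ± 0.46 (adjusted p = 0.394) in KO livers; without KO APAP replicate 2 the KO value was -1.91 and called, with an adjusted p of 0.00102.

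sult1st4 (ENSDARG00000003181) measured 15.9, 3.09, 11.3 and 7.80 CPM in WT DMSO and 0, 1.00, 0 and 0.506 in WT APAP libraries at 24 h, and fell there (log2 fold change -4.60 ± 1.34 (SE), adjusted p = 0.0457, edgeR). The call rested on 7 reads under APAP, and it was lost when any one of the 8 libraries was left out, with values between -5.79 and -4.17 and a range of 0.00271 to 0.171 in the adjusted p over all settings. For sult1st4 the remaining values were 0, 1.07, 6.51 and 5.32 CPM in WT DMSO, 0.507, 2.54, 1.96 and 2.11 in WT APAP, 1.68, 3.94, 1.96 and 5.46 in KO DMSO and 0.366, 0, 5.46 and 0 in KO APAP libraries at 12 h. The 24 h KO values were 2.60, 0.998, 12.5 and 7.66 under DMSO and 0.193, 1.31, 0.482 and 1.89 under APAP, and these pairs overlapped. sult1st3 had fold changes below 0 in all 4 comparisons, from -4.0 ± 1.27 in KO livers at 24 h (adjusted p = 0.0558) to -1.66 ± 1.08 in WT livers at 12 h, and no call by edgeR; DESeq2 and limma voom called it in WT livers at 24 h and in KO livers at both times. sult1st5 went the other way in WT livers at 24 h, from 0.190, 0.823, 1.38 and 0.400 CPM under DMSO to 4.42, 3.80, 6.36 and 4.04 under APAP, without overlap and without a call (log2 fold change 2.70 ± 1.12 (SE), adjusted p = 0.258). Its KO libraries at 24 h held 1.08, 0.799, 2.45 and 1.09 CPM under DMSO and 3.48, 2.19, 0.482 and 1.18 under APAP, and the DMSO libraries of 12 h 1.12, 2.75, 0.176 and 1.06 in WT and 1.81, 0.835, 0 and 0.574 in KO livers. sult1st1 was not called, at 0.00 ± 1.09 and 0.38 ± 1.03 in WT and -0.86 ± 1.01 and -0.46 ± 1.03 in KO livers.

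The sult2 enzymes sulfonate hydroxysteroids and bile alcohols. sult2st2 (ENSDARG00000103785), the SULT gene with most reads, measured 168, 356, 254 and 508 CPM in WT DMSO and 275, 324, 261 and 255 in WT APAP libraries at 12 h. The KO libraries gave 261, 267, 322 and 374 and 277, 383, 294 and 203. Neither pair was apart. Values at 24 h were 212, 463, 402 and 479 and 209, 149.7, 120.2 and 382 in WT livers, with overlap. In KO livers they were 456, 430.3, 376 and 356 and 113, 119.9, 231 and 183, without overlap. It fell 2.50-fold in KO livers at 24 h (log2 fold change -1.32 ± 0.34 (SE), adjusted p = 0.0105, edgeR), a call lost without KO APAP 24 h replicate 1 (-1.17, adjusted p = 0.0720) and KO APAP 24 h replicate 2 (-1.20, adjusted p = 0.0637) (range 6.67e-04 to 0.0720). For WT livers at 24 h the value was -0.85 ± 0.33 (adjusted p = 0.201), and at 12 h -0.20 ± 0.33 in WT and -0.08 ± 0.33 in KO livers. sult2st1 and sult2st3 were not called with APAP; sult2st3 had no read in any WT DMSO library at 12 h. sult6b1 (ENSDARG00000086826), whose substrates are little known, spread widely within the groups. It stood at 59.0, 13.3, 32.9 and 33 CPM in WT DMSO, 56.3, 105, 41.4 and 36.8 in WT APAP, 48.7, 133, 19.8 and 40.9 in KO DMSO and 98.1, 9.76, 21.0 and 34.5 in KO APAP libraries at 12 h. In the same order the libraries of 24 h were at 26.2, 43, 61.9 and 89.7, 35.9, 66.6, 86.9 and 60.2, 29.1, 92.2, 102 and 46.5 and 28.4, 42.4, 65.6 and 29.1. No comparison called it, with log2 fold changes of 0.79 ± 0.55 and 0.18 ± 0.55 in WT and -0.57 ± 0.55 and -0.71 ± 0.55 in KO livers. In KO against WT livers sult2st3 had 43 reads against 0 under DMSO at 12 h, 28 against 4 under APAP at 12 h, 18 against 6 under DMSO at 24 h and 41 against 1 under APAP at 24 h, without a call (lowest adjusted p = 0.247). SULT4A1, a brain enzyme in mammals, held at most 3.70 CPM in any library and was not called.

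The cofactor genes stand upstream of both classes. UGP2 makes UDP-glucose, UGDH oxidises it to UDP-glucuronic acid, and PAPSS2 makes PAPS from ATP and sulfate. UGDH (ENSDARG00000019838) measured 10.1, 5.35, 0.352 and 6.38 CPM in WT DMSO and 7.10, 0.634, 8.28 and 9.09 in WT APAP libraries at 12 h. Levels in KO livers were 20.6, 27.5, 25.6 and 16.8 and 11.4, 74.2, 9.61 and 4.05, so that KO APAP replicate 2 was the highest of all libraries. At 24 h the values were 8.34, 8.64, 2.57 and 5.20 and 8.23, 9.81, 9.91 and 1.26 in WT livers and 16.3, 23.0, 14.7 and 12.9 and 5.41, 7.0, 4.10 and 7.32 in KO livers. The KO DMSO libraries were above all WT DMSO libraries at both times, and above all KO APAP libraries at 24 h. None of these differences was called in the main fit: the APAP effect in KO livers at 24 h was -1.48 ± 0.73 (adjusted p = 0.330), and KO against WT under DMSO was 2.01 ± 0.73 (adjusted p = 0.443) at 12 h and 1.43 ± 0.72 (adjusted p = 0.731) at 24 h. An edgeR fit to the compared groups alone called both differences of 24 h. The APAP effect in KO livers was -1.48 there (adjusted p = 0.00678), and KO against WT under DMSO was 1.42 (adjusted p = 0.0492).

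One PAPSS2 copy (ENSDARG00000071021; the names do not say whether it is copy a or b) had its lowest group mean in WT DMSO livers at 12 h. It measured 0.750, 0.153, 0.352 and 1.82 CPM in WT DMSO and 11.9, 19.3, 7.83 and 9.62 in KO DMSO libraries at 12 h. Under APAP at 12 h it measured 3.55, 3.59, 4.79 and 4.86 in WT and 4.58, 0, 5.68 and 3.67 in KO livers. Under DMSO at 24 h it measured 5.12, 11.5, 13.8 and 5.40 in WT and 7.81, 17.8, 13.1 and 15.9 in KO livers. Under APAP at 24 h it measured 3.01, 5.60, 5.61 and 0.506 and 1.55, 7.66, 8.68 and 2.83. The WT DMSO libraries at 12 h were all below the WT APAP and KO DMSO libraries of that time and below the WT DMSO libraries at 24 h. The gene was higher in KO than in WT livers under DMSO at 12 h (log2 fold change 3.94 ± 0.84 (SE), adjusted p = 0.0183, edgeR) and rose from 12 h to 24 h in WT livers under DMSO (log2 fold change 3.50 ± 0.83 (SE), adjusted p = 0.0120); the comparisons share the WT DMSO libraries of 12 h. The first was not called in a fit to the compared groups alone (adjusted p = 0.0845), and it was lost without KO DMSO 12 h replicate 2 (3.61, adjusted p = 0.111), WT DMSO 12 h replicate 1 (3.92, adjusted p = 0.0907), WT DMSO 12 h replicate 2 (3.61, adjusted p = 0.0923) and WT DMSO 12 h replicate 3 (3.72, adjusted p = 0.115) and was 4.73, adjusted p = 0.0235 without replicate 4 (range 3.44e-05 to 0.115). The second was lost without WT DMSO 12 h replicate 2 (3.15, adjusted p = 0.0516) and WT DMSO 12 h replicate 3 (3.26, adjusted p = 0.0646) and was 4.27, adjusted p = 0.00961 without replicate 4 (range 2.80e-04 to 0.0646).

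With APAP its log2 fold change was 2.40 ± 0.81 (adjusted p = 0.148) in WT livers at 12 h and -1.79 ± 0.76 (adjusted p = 0.163) in KO livers, where every APAP library was below every DMSO library and DESeq2 (adjusted p = 0.0309) and limma voom (adjusted p = 0.0417) called it. The other PAPSS2 copy (ENSDARG00000056600) was called in no comparison, with APAP effects between -0.69 ± 0.74 and 0.64 ± 0.76. It gave 12.5, 17.7, 8.27 and 12.2 CPM in WT DMSO, 16.1, 6.97, 5.44 and 2.75 in WT APAP, 8.66, 4.17, 1.78 and 7.04 in KO DMSO and 7.51, 0, 11.6 and 1.93 in KO APAP libraries at 12 h. In the same order the 24 h libraries gave 9.10, 11.9, 10.3 and 13.4, 8.23, 6.8, 7.66 and 8.09, 6.07, 0.998, 0.816 and 9.03 and 6.57, 3.28, 6.99 and 9.45. Its WT APAP libraries of 24 h were below the WT DMSO libraries, and the KO DMSO libraries below the WT DMSO libraries. UGP2 (ENSDARG00000008200) was called in none either, with APAP effects between -0.29 ± 0.80 and 0.78 ± 0.80. This copy measured 9.09, 17.0, 4.22 and 4.71 CPM in WT DMSO, 10.5, 31.1, 6.75 and 5.71 in WT APAP, 6.33, 14.7, 1.25 and 5.31 in KO DMSO and 18.3, 0, 2.40 and 1.74 in KO APAP libraries at 12 h. At 24 h, again in that order, it measured 5.69, 2.88, 9.49 and 8.40, 6.02, 5.0, 26.9 and 7.58, 6.72, 5.19, 6.25 and 3.28 and 7.54, 7.0, 5.79 and 6.38. All pairs of groups overlapped.

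**Figure D5:**
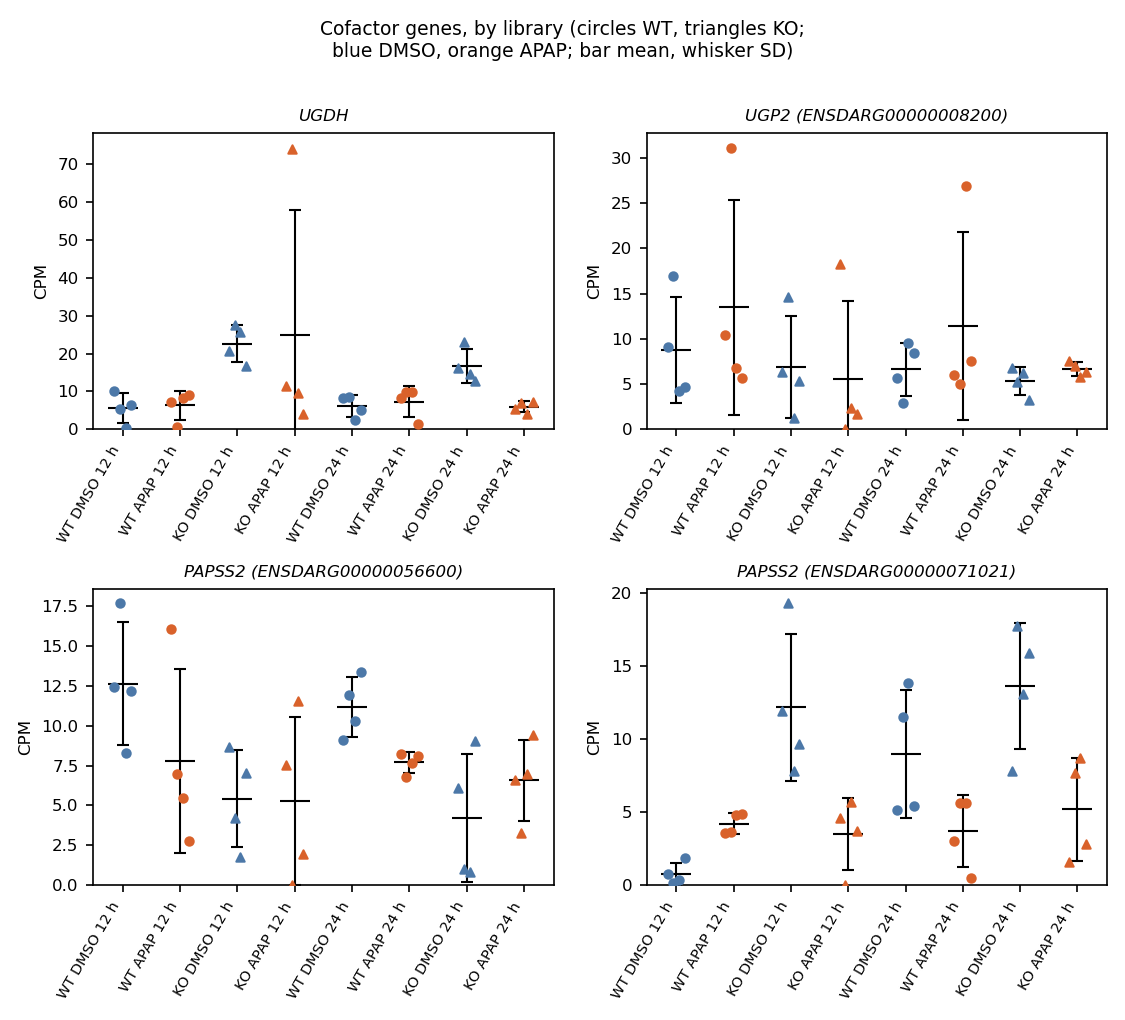
CPM by library for the 4 tested cofactor genes in the 8 groups (circles WT, triangles KO, blue DMSO, orange APAP; bar, mean; whisker, SD, cut off at 0; n = 4). UGDH lies between 16.8 and 27.5 CPM in the KO DMSO libraries at 12 h and at or below 10.1 in the WT DMSO libraries, and PAPSS2 (ENSDARG00000071021) is at or below 1.82 CPM in the WT DMSO libraries at 12 h.

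The comparison of genotypes asks whether the knockout alters these genes with and without the drug. The genotype comparisons use the same libraries as those of APAP against DMSO. Under DMSO no UGT or SULT gene was called at 12 h, where the PAPSS2 copy was the 1 member called higher (0.141% of all genes were), and no member at 24 h (0.281% of all genes called). At 24 h 1 member, sult3st4, had an unadjusted p under 0.05, and neither DESeq2 nor limma voom called any. A fit to the compared groups alone called sult3st4 and UGDH. The share of all genes at an unadjusted p under 0.05 is not given here. Member counts at that level, here and below, are therefore no result about the members. For sult3st4 every KO DMSO library was below every WT DMSO library at both times (-1.20 ± 0.79 at 12 h, adjusted p = 0.966, and -1.79 ± 0.81 at 24 h, adjusted p = 0.600). Under APAP at 12 h 4 members were called: sult3st4, sult1st5 and ugt5b4 lower and sult3st3 higher in KO livers (0.949% of all genes were lower and 1.28% higher). The values per library are those given above for APAP at 12 h. For sult3st4 the groups were 11.5, 8.45, 6.97 and 4.44 CPM in WT and 0.183, 0, 0.873 and 0 in KO livers (log2 fold change -4.79 ± 1.04 (SE), adjusted p = 0.00775, edgeR; -6.45, adjusted p = 0.00475 without KO APAP 12 h replicate 3; range 2.95e-05 to 0.221). ugt5b4 was 3.75-fold lower (log2 fold change -1.91 ± 0.51 (SE), adjusted p = 0.0370), and sult3st3 was 14.9-fold higher (log2 fold change 3.90 ± 1.04 (SE), adjusted p = 0.0358) with overlapping groups. sult1st5 measured 3.21, 1.06, 0.871 and 3.38 CPM in WT and 0, 0, 0 and 0.193 in KO livers, that is 44 reads and 1 read, a ratio of 0.0235 with a 95% counting interval of 0.000582 to 0.138 (adjusted p = 0.0445).

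Of these 4 calls, that of sult3st4 held without each of the 8 libraries in turn. A fit to the compared groups alone did not call sult3st4 (adjusted p = 0.221) or ugt5b4 (adjusted p = 0.591). It gave no value for sult3st3 and sult1st5, which the filter on low counts left out there. Those calls were thus not tested in that fit. With the replicate number as a block, sult3st4 was the 1 member called, and ugt5b4 had an adjusted p of 0.0535, sult3st3 of 0.0744 and sult1st5 of 0.0741. The ugt5b4 call was lost without KO APAP 12 h replicate 1 (-1.78, adjusted p = 0.0799), KO APAP 12 h replicate 4 (-1.97, adjusted p = 0.0598), WT APAP 12 h replicate 1 (-1.67, adjusted p = 0.124), WT APAP 12 h replicate 2 (-1.78, adjusted p = 0.0934) and WT APAP 12 h replicate 3 (-2.07, adjusted p = 0.0512), and was -2.57, adjusted p = 0.00742 without KO APAP 12 h replicate 3 (range 0.00113 to 0.591). The sult3st3 call was lost without KO APAP 12 h replicate 3 (2.54, adjusted p = 0.174), WT APAP 12 h replicate 1 (3.47, adjusted p = 0.128), WT APAP 12 h replicate 2 (3.52, adjusted p = 0.114) and WT APAP 12 h replicate 3 (3.75, adjusted p = 0.116), and was 5.99, adjusted p = 0.0158 without WT APAP 12 h replicate 4 (range 0.00195 to 0.174). The sult1st5 call was lost without any one library other than KO APAP 12 h replicate 4, and its adjusted p ran from 0.00486 to 0.127 over the settings. Without that library the KO group has no read of sult1st5. UGT1A1, with WT and KO libraries apart, had -1.49 ± 0.46 (adjusted p = 0.0732) at 12 h and -1.14 ± 0.45 (adjusted p = 0.316) at 24 h, when the groups overlapped. DESeq2 (adjusted p = 0.0169) and limma voom (adjusted p = 0.0328) called UGT1A1 lower at 12 h, as did edgeR on all genes with a read (adjusted p = 0.0130). Without the 3 libraries of few genes edgeR called it lower at 24 h (-1.12, adjusted p = 0.0483). Under APAP at 24 h edgeR called no member (1.19% of all genes were called), 5 had an unadjusted p under 0.05, and DESeq2 and limma voom called none.

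Whether the response to APAP differs between genotypes was tested as an interaction. No member was called at 12 h or 24 h with edgeR (0.0703% and 0.105% of all genes were). At an unadjusted p under 0.05 there were 7 members at 12 h and 1 at 24 h, again without the share of all genes at that level. DESeq2 called 1 at 12 h, the PAPSS2 copy ENSDARG00000071021, and none at 24 h, and limma voom none. At 12 h the KO response minus the WT response was -1.84 ± 0.64 for UGT1A1 (95% interval -3.13 to -0.55, adjusted p = 0.432) and -2.93 ± 1.1 for ugt5b3 (interval -5.15 to -0.71). It was -1.1 ± 0.70 for ugt5b4 (interval -2.52 to 0.31) and 1.24 ± 0.82 for sult3st2 (interval -0.41 to 2.89). For the PAPSS2 copy it was -4.20 ± 1.11 (interval -6.43 to -1.96, adjusted p = 0.210; DESeq2 adjusted p = 0.00680). At 24 h it was -1.01 ± 0.70 for ugt5b4 (interval -2.43 to 0.41), 0.61 ± 0.81 for sult3st2 (interval -1.02 to 2.24) and -0.99 ± 0.44 for ugt2a4 (interval -1.88 to -0.11). Calls made in 1 genotype alone, such as those of ugt5b2 and UGT1A1, are therefore not shown to differ between the genotypes.

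Between 12 h and 24 h the only member called was the PAPSS2 copy in WT livers under DMSO, 1 of 34, where 1.21% of all genes rose. In WT livers under APAP (0.0527% of all genes called), in KO livers under DMSO (2.52%) and in KO livers under APAP (0.439%) edgeR called no member, with 2, 4 and 5 at an unadjusted p under 0.05. DESeq2 called 0, 1 and 2 in these, namely ugt1b5 under DMSO and sult1st5 and sult1st6 under APAP in KO livers, and limma voom called none. The 4 members at an unadjusted p under 0.05 in KO livers under DMSO were ugt5c3 (-2.42 ± 1.16, adjusted p = 0.376), ugt1b5 (-1.85 ± 0.66, adjusted p = 0.148), UGT1A1 (-1.14 ± 0.45, adjusted p = 0.225) and ugt2a4 (0.96 ± 0.31, adjusted p = 0.0984). In that comparison 5 of 11 hepatocyte and 5 of 8 pancreatic markers were called higher at 24 h, with list medians of 1.29 and 1.70 against -0.08 for all genes; pancreatic markers took 2.0% of the reads at 12 h and 4.33% at 24 h. Intestinal markers took 0.309% and 0.0856%, with a list median of -0.73 and no call. In WT livers under DMSO fabp10a, a hepatocyte fatty acid binding protein, was the one hepatocyte marker called higher at 24 h (1.25 ± 0.34, adjusted p = 0.0356), and no pancreatic marker was called. Their part in the differences between times was not tested.

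Other genes of the conjugation route were examined as lists. In cofactor supply and transport (18 genes tested), PGM2, of the phosphoglucomutase family, and CBS, the first enzyme of the transsulfuration pathway that yields cysteine and sulfate, fell most often. CBS fell with APAP in WT livers at 12 h (-2.05 ± 0.54, adjusted p = 0.0319) and 24 h (-3.13 ± 0.56, adjusted p = 3.83e-04) and in KO livers at 24 h (-2.04 ± 0.54, adjusted p = 0.0151). PGM2 fell in WT livers at 24 h (-2.16 ± 0.61, adjusted p = 0.0379) and in KO livers at 12 h (-1.94 ± 0.60, adjusted p = 0.0465) and 24 h (-2.77 ± 0.62, adjusted p = 0.00317), and pgm1, which interconverts glucose phosphates, fell in KO livers at 24 h (-1.31 ± 0.34, adjusted p = 0.0137). Against these decreases, CDO1, which oxidises cysteine towards sulfate (1.40 ± 0.43, adjusted p = 0.0456), and CTH (ENSDARG00000074301), the second transsulfuration enzyme (1.30 ± 0.36, adjusted p = 0.0255), rose in KO livers at 12 h. The CDO1 groups overlapped, with 1318 ± 888 CPM under APAP and 498 ± 263 under DMSO. CDO1 also rose from 12 h to 24 h in KO livers under DMSO (1.52 ± 0.43, adjusted p = 0.0459, edgeR). Both CDO1 comparisons share the KO DMSO libraries of 12 h. The part of that group in the rise of CDO1 with APAP was not tested. In counts, 0 genes of the list rose and 1 fell in WT livers at 12 h, 0 and 2 in WT livers at 24 h, 2 and 1 in KO livers at 12 h, and 0 and 3 in KO livers at 24 h, with list medians of 0.29, -0.37, -0.55 and -1.06. Over all genes tested the medians in that order were -0.07, 0.02, -0.30 and -0.00, and 1.35%, 1.64%, 3.09% and 2.05% of genes rose and 0.448%, 1.55%, 2.13% and 3.00% fell.

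Among 8 tested transporters of conjugates, abcc2, the canalicular pump for glucuronides and glutathione conjugates, rose with APAP in WT livers, from 91.2 ± 28.5 to 449.9 ± 178 CPM at 12 h (2.30 ± 0.31, adjusted p = 2.49e-06) and from 196 ± 24.1 to 552 ± 120.2 at 24 h (1.49 ± 0.30, adjusted p = 0.00163). In KO livers it was not called, at 0.65 ± 0.29, adjusted p = 0.196 at 12 h and 0.72 ± 0.29, adjusted p = 0.197 at 24 h, and under APAP it was lower in KO than in WT livers at both times (-1.51 ± 0.30, adjusted p = 0.00350; -1.59 ± 0.30, adjusted p = 0.00131), while the interaction had an adjusted p of 0.157 at 12 h and 1.00 at 24 h. abcc2 also rose from 12 h to 24 h in WT livers under DMSO, without the drug (1.11 ± 0.30, adjusted p = 0.0337, edgeR). This rise and that with APAP at 12 h share the WT DMSO libraries of 12 h. The part of that group in the rise of abcc2 with APAP was not tested. slco1d1, an uptake carrier, fell in KO livers at 24 h (-1.52 ± 0.37, adjusted p = 0.00859). No other of the 8 was called with APAP. The list medians were 0.33 and -0.38 in WT and -0.46 and -0.18 in KO livers at 12 h and 24 h, beside the medians of all genes given above for the same comparisons. The 2 tested deconjugating enzymes, GUSB, which splits glucuronides, and STS, which splits steroid sulfates, were not called with APAP. Of 15 tested regulators, keap1a (2.40 ± 0.53, adjusted p = 0.00669) and KEAP1 (2.80 ± 0.58, adjusted p = 0.00338), the repressors of Nrf2, rose in WT livers at 12 h, and KEAP1 rose in KO livers at 24 h (2.29 ± 0.58, adjusted p = 0.00996). In WT livers at 12 h keap1a averaged 9.07 CPM under DMSO and 48.2 under APAP. It also rose from 12 h to 24 h in WT livers under DMSO, without the drug (2.36 ± 0.53, adjusted p = 0.00705). Both keap1a comparisons share the low WT DMSO libraries of 12 h, and the part of that group in the rise with APAP was not tested. The hepatocyte factors CEBPB (1.66 ± 0.33, adjusted p = 0.00119) and foxa3 (1.84 ± 0.44, adjusted p = 0.00754) rose with APAP in KO livers at 12 h, FOXA2 fell there at 24 h (-2.49 ± 0.74, adjusted p = 0.0371), and in WT livers at 24 h no regulator was called with APAP. Between genotypes the regulator ahr2 was called lower in KO than in WT livers under APAP at 12 h (-2.84 ± 0.80, adjusted p = 0.0471, edgeR).

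Other cell types contributed reads to these libraries. Markers of the intestine, which also makes UGT and SULT enzymes, took 0.309% (0.0902% to 0.850%) of the reads in KO DMSO libraries at 12 h and 0.0527% (0.0279% to 0.0730%) in KO APAP libraries, and 0.0856% against 0.0321% at 24 h. In WT livers they took 0.134% against 0.0743% at 12 h and 0.0615% against 0.0482% at 24 h. Of 10 tested intestinal markers, FABP2 fell with APAP in KO livers at 12 h (-2.27 ± 0.49, adjusted p = 0.00269) and 24 h (-1.69 ± 0.48, adjusted p = 0.0262), 1 SLC15A1 row fell at 12 h, and none was called with APAP in WT livers. Between genotypes 1 ANPEP row was called lower in KO than in WT livers under APAP at 24 h (-7.86 ± 2.06, adjusted p = 0.0472, edgeR), with overlapping groups. The part of intestinal RNA in the KO decreases of UGT and SULT genes was not tested. In the KO DMSO library of 12 h with the most intestinal reads, replicate 2, 14 of the 34 tested members, UGT1A1, ugt1b5, ugt5b3, sult3st3 and sult6b1 among them, were the highest of their group and 6, sult3st2 and ugt5b4 among them, were the lowest. That count was not particular to this library. In the other groups the library with most intestinal reads was highest for 8 (WT DMSO 12 h) to 15 members (WT DMSO 24 h, with 0.0887% intestinal reads). It was lowest for 1 (KO APAP 12 h) to 8 members (KO DMSO 24 h). The share over all genes is not given here. Markers of red blood cells fell with APAP at 24 h, 3 of 6 in WT and 2 of 6 in KO livers, from 0.162% to 0.0345% and from 0.110% to 0.0271% of reads. With APAP 1 of 8 pancreatic markers fell in KO livers at 24 h. Over all genes tested 1.55% fell in WT and 3.00% in KO livers at 24 h. None of 4 tested biliary markers was called with APAP. Their part in the results was not tested.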

How the data were processed

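Whole-number read counts per Ensembl gene were deposited as 1 table of 32 libraries, each from 20 pooled larval livers. Per the submitters' processing notes the authors' tools were bcl2fastq, Trim Galore, HISAT2 and HTSeq, with the genome build GRCz11. Strand setting, counting mode and annotation release are not given in the sources used here, so overlapping or antisense genes are uncertain. Between 3971569 and 6298523 reads per library were assigned to genes. Rows that name no gene were left out of library sizes: no feature took 3.60% to 9.64% and ambiguous reads 2.06% to 3.17% of a library. Symbols came from a table pairing Ensembl IDs with names, and neighbouring genes from RefSeq on GRCz12tu, by symbol (48 of 55 members matched 1 entry). No coordinates or sequences were used.

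Counts were tested with edgeR 4.0.16 (R 4.3.3): filterByExpr, TMM scaling, 1 mean per group over all 32 libraries, quasi-likelihood F-test and Benjamini-Hochberg adjustment over 11384 genes, with a call at an adjusted p under 0.05. Residual degrees of freedom were 24 and the common biological coefficient of variation was 0.743. There were 14 comparisons: APAP against DMSO, KO against WT, their interaction, and 24 h against 12 h. The procedure was tested on simulated counts. Alternatives were DESeq2 1.42.0, limma voom 3.58.1, relative log expression scaling, a fit to the compared groups alone, replicate number as a block, all genes with a read, no libraries of few genes, and each library left out in turn. Intervals on reads cover counting error only, since reads without molecular identifiers are not independent molecules. No pair of replicates differed by as little as sampling noise (lowest chi-square per degree of freedom 15.5). Library values are given for members called in any comparison (up to 6 per class and comparison), the 5 members of each class with the highest mean CPM, and the cofactor genes. Pathway and marker genes came from 9 lists (104 symbols, 7 without a match). Members and lists were chosen with earlier results of these data known.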

Additional observations from a re-analysis of the deposited data

Results flagged for a closer look

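In 15 of 182 sets of 4 libraries examined (22 members with reads in at least 2 libraries of the group, and the class sums), 1 library stood far from the other 3 by Dixon's criterion; chance alone flags about 1 in 20 sets, or 9.1 of them. All values are CPM.

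KO APAP 12 h replicate 2, the library with fewest genes detected, was far above its group for sult1st6 (108, the others at most 22.9) and for UGDH (74.2, the others at most 11.4). Other libraries of that group stood high for sult1st4 (replicate 3, 5.46, the others at most 0.366), ugt5b2 (replicate 4, 5.98, the others at most 0.915), ugt5b3 (replicate 1, 1.46, the others at most 0.193) and UGP2 ENSDARG00000008200 (replicate 1, 18.3, the others at most 2.40). The same UGP2 copy was high in WT APAP 24 h replicate 3 (26.9, the others at most 7.58). sult3st4 was high in KO APAP 24 h replicate 3 (4.34, the others at most 0.219), and ugt5b2 in WT APAP 12 h replicate 3 (13.9, the others at most 5.07). In WT DMSO 12 h replicate 2, UGT8 (18.9, the others at most 11.2) and sult3st5 (17.4, the others at most 9.09) were high. KO DMSO 12 h replicate 3 was low for sult1st6 (40.2, the others at least 72.7) and for UGT8 (11.9, the others at least 16). The summed UGT genes were low in WT APAP 12 h replicate 1 (348, the others at least 442), and the summed SULT genes in WT DMSO 24 h replicate 1 (446, the others at least 714).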

How the results depend on the processing

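No call of a single gene changed its sign. Each of the 27 calls was refitted under the alternatives that gave it a value. Of the refits that left out 1 library, 147 held the call and 69 ended it; of all other refits, 172 held the call and 15 ended it. The cause was not tested for any change below.

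Members called with APAP numbered 3 and 5 in WT livers at 12 h and 24 h and 7 and 6 in KO livers. The counts under other settings, below, stand without the share of all genes called under the same setting. They show only how far the number of calls depends on the setting, and are no result about the members. DESeq2 called 5 and 11 in WT livers and 11 and 10 in KO livers, 7 between genotypes under APAP at 12 h (4 with edgeR), 1 in the interaction at 12 h, and 1 and 2 between times in KO livers under DMSO and APAP. limma voom called 12 in KO livers at 12 h. A fit to the compared groups alone called 10 in WT livers at 24 h, 2 in KO livers at 12 h, 0 and 2 between genotypes under DMSO at 12 h and 24 h, 0 under APAP at 12 h, and 3 between times in KO livers under DMSO. Without the 3 libraries of few genes the counts were 11 in WT livers and 10 in KO livers at 24 h, 1 between genotypes under APAP at 24 h, and 1 and 2 between times in WT livers under APAP and in KO livers under DMSO. Leaving out 1 library gave 1 to 3 and 2 to 6 in WT livers and 4 to 8 and 3 to 6 in KO livers with APAP, 0 to 1 between genotypes under DMSO and 1 to 5 under APAP at 12 h, 0 to 1 between times in WT livers under DMSO, and 0 in each other comparison. The labels do not say whether replicate numbers pair the libraries. Over 112 pairs of equal number the correlation of deviations from the group means ran from -0.185 to 0.146. The 4 that exceeded 0.1 all joined libraries of the same time. Most groups compared in this check differ in time as well, so it cannot exclude a clutch or batch shared within a time. With the replicate number as a block, 1 member was called between genotypes under APAP at 12 h, and no other count of calls moved by over 1.5 times.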
